A study of Mus musculus with 14 samples.

Results

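The transcripts described here are 9 genes commonly read as marks of dendritic cells: Flt3, Zbtb46, Xcr1, Clec9a, Batf3, Cd209a, Fscn1, Ccr7 and Itgae. They were taken by name from the deposited table, which held all 9 among its 43432 genes and were proposed with earlier results of these data known. The study profiled by RNA-seq sorted lung cells of male 129S1 mice aged 10 to 12 weeks, in 14 libraries. The mice had received water or bleomycin (3 U/k, as the labels write the dose) by the intratracheal route. All libraries came from SiglecF-positive, CD11c-positive cells, the surface marks of alveolar macrophages, which were then divided by their surface level of MHC class II (MHCII). The groups were MHCII-low cells of water-treated control mice (2 libraries, labelled as replicates 1 and 3), and MHCII-low and MHCII-high cells 2 weeks and 4 weeks after bleomycin (3 libraries each). For the MHCII-high level no control group was used here, so the MHCII-high cells have no water-treated counterpart. Bleomycin is a DNA-damaging drug that injures the lung and leads to fibrosis. The labels do not say whether the libraries of a group came from separate mice, so the p-values measure only the spread between these libraries.

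Dendritic cells take up antigen, carry it to lymph nodes and present it to T cells. Conventional dendritic cells are divided into type 1 (cDC1), which depend on the transcription factor BATF3 and take up dead cells and cross-present their antigens, and type 2 (cDC2), which depend on IRF4 and present mainly to helper T cells. Both grow in response to the cytokine FLT3 ligand and express the transcription factor ZBTB46. When they mature, they bundle actin with fascin and follow CCR7 ligands into lymphatic vessels. In the mouse lung, cDC1 carry the integrin CD103 and cDC2 carry CD11b, and both have high MHCII and CD11c but little or no SiglecF.

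To place 3 of these genes on the genome beside their values, the 250 bases before the RefSeq transcription start are given (RefSeq table on build GRCm38.p6, 5′ to 3′ on the strand of the gene). Flt3 and Fscn1 are shown because they had the largest differences between MHCII-high and MHCII-low cells of the 9 genes over both times, and Zbtb46 because it alone held a match to a motif searched. The Flt3 window is chr5:147400490-147400739 on the minus strand. The Zbtb46 window is chr2:181424389-181424638 on the minus strand and lies inside the gene span that the deposited table gives, since this RefSeq start is an internal one. The same base is the 5′ end of an internal exon in other transcripts of the gene in GENCODE M21, and the window ends in ag, as introns do, so the window may be intron rather than promoter. The Fscn1 window is chr5:142960105-142960354 on the plus strand.
Flt3: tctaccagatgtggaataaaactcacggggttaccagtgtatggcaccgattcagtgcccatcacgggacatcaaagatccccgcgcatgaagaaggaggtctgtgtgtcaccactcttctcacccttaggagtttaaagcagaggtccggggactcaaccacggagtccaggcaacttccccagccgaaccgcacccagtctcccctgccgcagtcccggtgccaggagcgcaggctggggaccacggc
Zbtb46: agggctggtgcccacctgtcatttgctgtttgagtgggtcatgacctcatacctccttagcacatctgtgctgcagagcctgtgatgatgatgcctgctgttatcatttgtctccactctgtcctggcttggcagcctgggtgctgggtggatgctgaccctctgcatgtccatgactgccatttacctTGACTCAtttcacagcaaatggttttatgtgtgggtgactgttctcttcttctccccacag
Fscn1: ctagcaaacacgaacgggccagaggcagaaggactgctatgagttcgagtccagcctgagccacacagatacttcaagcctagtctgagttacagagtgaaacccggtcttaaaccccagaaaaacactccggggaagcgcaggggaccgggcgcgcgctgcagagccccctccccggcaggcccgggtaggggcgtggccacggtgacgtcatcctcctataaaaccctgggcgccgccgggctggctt
The capitals in the Zbtb46 window mark its match to the AP-1 motif TGANTCA, 61 to 55 bases before this internal start, and it is not read as a promoter element. BATF3 is a member of the AP-1 family. The motifs were searched on both strands in the windows of the 7 member genes that the table holds. AP-1 was found in 1 of the 7, against 6.75% of all 32851 windows in the table. The PU.1 motif GAGGAAGT (2.44% of all windows), the ETS-IRF composite motif (2.30%) and the NF-kB motif (3.90%) had no match in the 7 windows. These matches are letters in a window and were not tied to any binding measured here.

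Library depth was 15106420 to 88059617 reads, and the mitochondrial ribosomal RNAs took 3.12% to 28.99% of them. In principal components of the tested genes, the library of 4-week MHCII-high replicate 3 was far from the rest, at 146.4 on the second component (12.3% of the variance), where the other 13 libraries lay between -73.5 and 44.7. Values at 4 weeks are therefore also given without it where the call changes. The sorted markers were high throughout: Siglecf was at 3056 to 9551 and Itgax, the gene of CD11c, at 25185 to 44133 normalized counts. A normalized count is the number of reads of a gene scaled by the authors for library depth. Differences are given as log2 fold changes on the log2(value + 1) scale ± standard error, with limma's Benjamini-Hochberg adjusted p over the 17390 genes tested and a threshold of 0.05. In bulk RNA, more cells of a type and more RNA per cell cannot be told apart.

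Flt3 encodes the receptor of FLT3 ligand, the growth factor of dendritic cells and their progenitors, and lies at chr5:147330741-147400489. It was almost absent from MHCII-low cells and present in every MHCII-high library. In controls it was at 0 and 1.7 normalized counts. In MHCII-low cells after bleomycin it was at 17.9, 0 and 0 at 2 weeks, and at 1.7, 0 and 0 at 4 weeks. Of these 8 libraries 5 held no Flt3 read, where a count of 0 still allows up to 3 reads. MHCII-high cells held 260.4, 91.7 and 119 normalized counts at 2 weeks, from 112 to 506 reads, and 187, 281 and 229 at 4 weeks, from 90 to 188 reads. The libraries of the MHCII levels did not overlap at either time, and every MHCII-high library was above every MHCII-low and control library. The mean ratio at 2 weeks was 26.3-fold, with the lower mean (5.97 ± 10.3, SD, n = 3) resting on 8 reads of 1 library. Flt3 reached the filter on low values, 10 normalized counts in 2 libraries, only through MHCII-high cells, since 1 of the 8 other libraries was at or above 10. The log2 difference was 5.74 ± 1.14 at 2 weeks (adjusted p = 0.0059, and 0.031 with no filter) and 7.37 ± 1.14 at 4 weeks (adjusted p = 0.00054, and 0.0061 with no filter). With so few reads in MHCII-low cells, the size of these fitted differences depends on the pseudocount. Flt3 rose in MHCII-high cells at both times, and with DESeq2 on the recovered reads it fell just outside the threshold at 2 weeks (log2 4.81, adjusted p = 0.051).

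**Figure D1:**
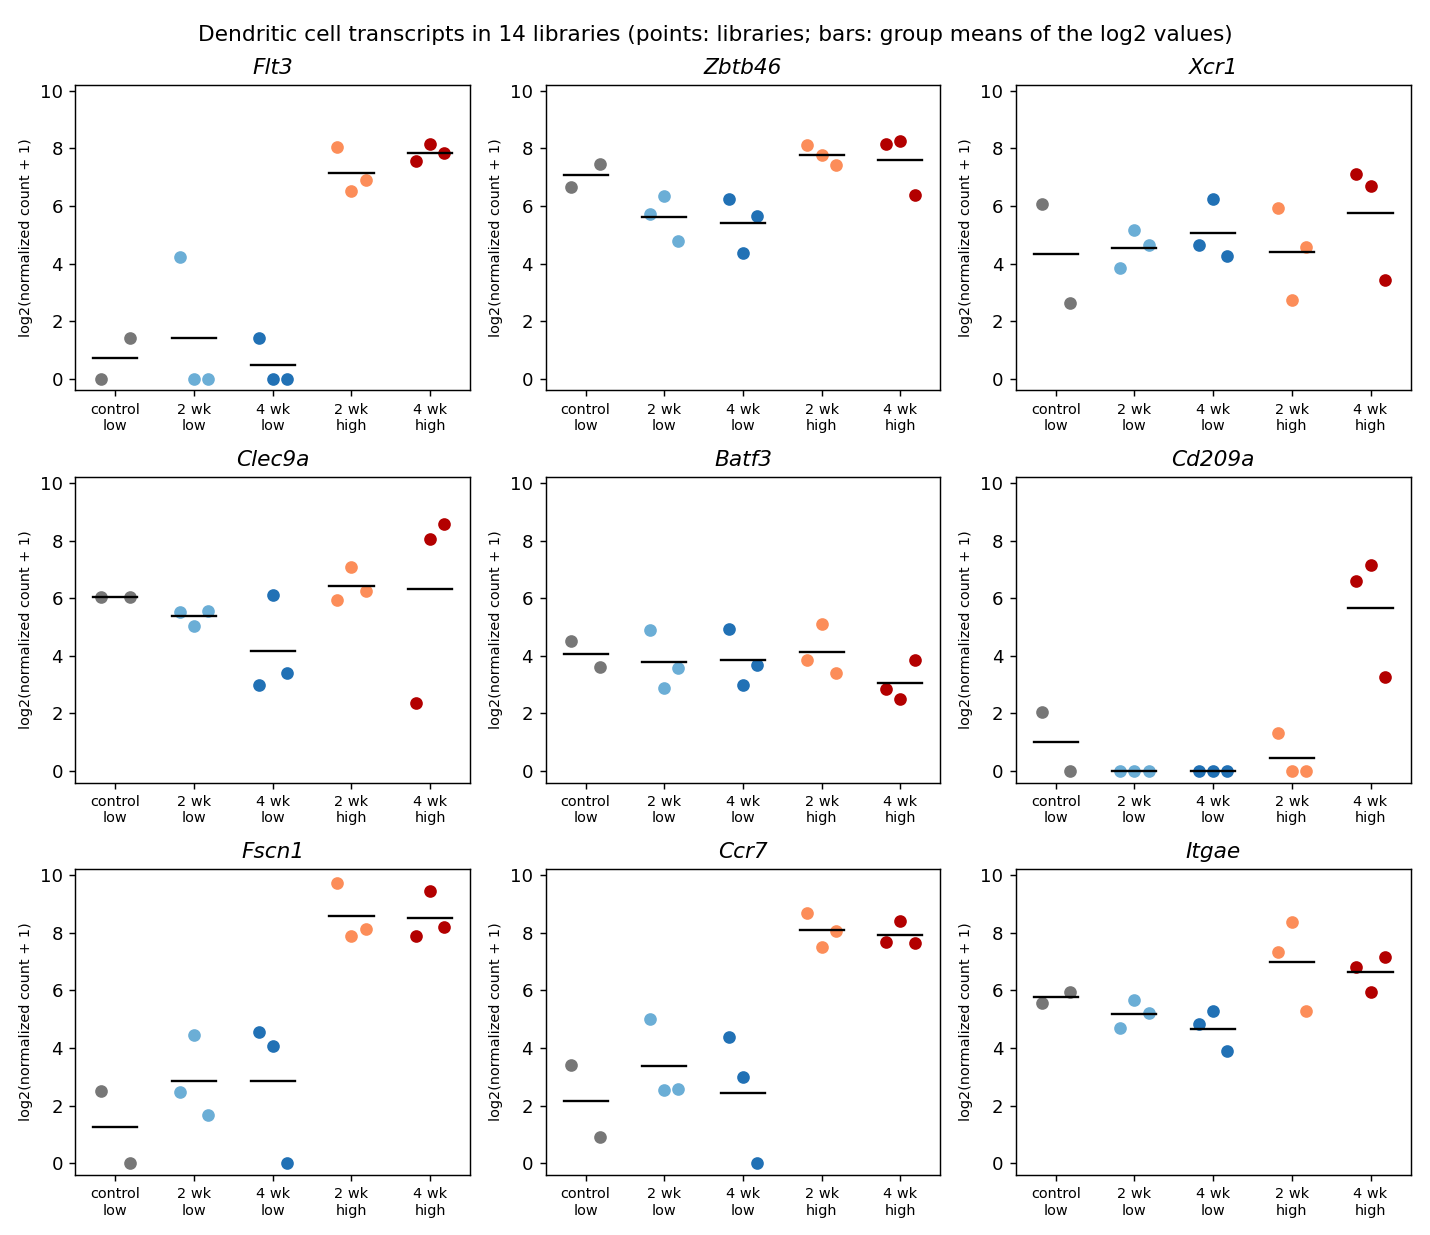
Level of each of the 9 genes in each of the 14 libraries, as log2(normalized count + 1) on the vertical axis, with the 5 groups along the horizontal axis. Each point is a library and each bar is the mean of the log2 values of its group. For Flt3, Fscn1 and Ccr7 all 6 MHCII-high libraries lie above all 8 MHCII-low and control libraries. For Xcr1 and Batf3 the groups overlap.

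Zbtb46 encodes a zinc finger transcription factor that marks conventional dendritic cells and their committed precursors (chr2:181387762-181459426, minus strand). Unlike Flt3, it was detected in all 14 libraries. It was at 100.9 and 176.5 normalized counts in controls. In MHCII-low cells it was at 51.5, 79.6 and 26.4 at 2 weeks, and at 74.6, 19.6 and 49.0 at 4 weeks. The MHCII-high libraries were at 277, 218 and 171 at 2 weeks, and at 281, 303 and 82.8 at 4 weeks. All MHCII-high libraries were above all MHCII-low libraries of their time, the lowest being replicate 3 of the 4-week cells. Mean levels were 4.23-fold higher at 2 weeks and 4.66-fold higher at 4 weeks. On the log2 scale the difference was 2.17 ± 0.63 at 2 weeks and 2.18 ± 0.63 at 4 weeks, and neither passed the threshold (adjusted p = 0.07 and 0.077). Averaged over both times it was 2.17 ± 0.45 and passed (adjusted p = 0.0037). Without replicate 3 of the 4-week MHCII-high cells both single times passed too, at 2.17 (adjusted p = 0.033) and 2.78 (adjusted p = 0.019). DESeq2 called both as well, at 2.09 (adjusted p = 0.013) and 2.22 (adjusted p = 0.0069). The control libraries overlapped with the MHCII-high libraries, and the mean ratio of the 2-week MHCII-high cells to control was 1.60-fold.

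Xcr1, Clec9a and Batf3 are the genes most closely tied to cDC1. XCR1 is the receptor of the chemokine XCL1, CLEC9A a lectin that binds actin exposed by dead cells, and BATF3 the transcription factor that cDC1 need. None of the 3 passed the test between MHCII-high and MHCII-low cells at 2 weeks, at 4 weeks or averaged over both. Xcr1 (chr9:123852315-123862029) was at 65.8 and 5.2 normalized counts in controls, at 13.4, 35.0 and 24.2 in 2-week MHCII-low cells, and at 24.0, 74.5 and 18.1 in 4-week MHCII-low cells. In MHCII-high cells it was at 60.2, 5.7 and 22.6 at 2 weeks and at 137, 102 and 9.7 at 4 weeks. High and low libraries of Xcr1 occurred in both MHCII levels, and the spread within the 4-week MHCII-high cells (SD 65.9 around a mean of 83.0) was about as large as their level. The log2 difference was -0.14 ± 1.13 at 2 weeks (adjusted p = 0.98) and 0.69 ± 1.13 at 4 weeks (adjusted p = 0.83).

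Clec9a (chr6:129408862-129424763) was at 64.7 and 65.4 normalized counts in controls, at 44.7, 31.8 and 46.3 in 2-week MHCII-low cells, and at 6.9, 68.6 and 9.6 in 4-week MHCII-low cells. In MHCII-high cells it was at 60.2, 134 and 74.7 at 2 weeks. The 4-week MHCII-high libraries were far apart, at 4.2 in replicate 1, which is 2 reads, and at 262 and 377 in replicates 2 and 3. At 2 weeks the MHCII levels did not overlap, and at 4 weeks they did, through replicate 1. The log2 difference was 1.05 ± 1.16 at 2 weeks (adjusted p = 0.74) and 2.16 ± 1.16 at 4 weeks (adjusted p = 0.41). Without that replicate the 4-week difference was 4.13 (adjusted p = 0.0077), and without replicate 3 it was 1.04 (adjusted p = 0.73), so the value rests on single libraries. DESeq2 called it at 4 weeks (2.92, adjusted p = 0.036). Exons of Clec9a overlap those of Clec1b on the same strand, a gene at 3.1 to 58.3 normalized counts, so reads in the overlap could belong to either gene and the level of Clec9a is uncertain.

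Batf3 (chr1:191097847-191108945) was low in all libraries. It was at 21.8 and 11.2 normalized counts in controls, at 29.1, 6.4 and 11 in 2-week MHCII-low cells, and at 29.2, 6.9 and 11.7 in 4-week MHCII-low cells. It was at 13.4, 33.6 and 9.6 in 2-week MHCII-high cells and at 6.2, 4.7 and 13.4 in 4-week MHCII-high cells, the last from 3 to 11 reads. All 5 groups overlapped. Its log2 difference was 0.33 ± 1.00 at 2 weeks (adjusted p = 0.93) and -0.79 ± 1.00 at 4 weeks (adjusted p = 0.77).

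Itgae encodes the alpha chain of CD103, which pairs with the beta 7 chain, binds E-cadherin and is carried by lung cDC1 and by resident T cells (chr11:73090583-73147446). It was at 46.7 and 60.3 normalized counts in controls. In MHCII-low cells it was at 24.6, 49.4 and 36.3 at 2 weeks and at 27.4, 38.2 and 13.9 at 4 weeks. In MHCII-high cells it was at 160.0, 328 and 38.2 at 2 weeks, where replicate 3 lay among the MHCII-low libraries, and at 110.3, 61.2 and 140.0 at 4 weeks, above them all. Mean levels were 4.77-fold and 3.92-fold higher in MHCII-high cells. For Itgae the log2 difference was 1.81 ± 0.76 at 2 weeks (adjusted p = 0.24) and 1.96 ± 0.76 at 4 weeks (adjusted p = 0.21), short of the threshold at each time. Averaged over both it was 1.88 ± 0.54 and passed (adjusted p = 0.035). That call was lost when single libraries were left out, in 8 of 14 cases (adjusted p up to 0.12), with no filter on low values (0.069) and with the share of mitochondrial ribosomal RNA as a covariate (0.22). Haspin lies on the other strand within an intron of Itgae without touching its exons. The beta 7 gene Itgb7 was at 149 ± 41.7 and 139 ± 120 (SD, n = 3) in MHCII-high cells, and at 75.3 ± 72.1 and 34.8 ± 50.3 in MHCII-low cells, at 2 and 4 weeks. Its log2 difference over both times was 2.26 ± 0.74 and did not pass (adjusted p = 0.067).

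Cd209a encodes the mouse homologue of the lectin DC-SIGN, found on cDC2 and on monocyte-derived cells (chr8:3743397-3748984). Its reads came almost only from 1 group. It was at 0 in all 6 MHCII-low libraries after bleomycin and at 3.1 and 0 normalized counts in controls. In 2-week MHCII-high cells it was at 1.5, 0 and 0, in all 3 reads. In 4-week MHCII-high cells it was at 95.7, 139.6 and 8.5, from 7 to 89 reads, and these libraries lay above all others. Mean Cd209a at 4 weeks was at least 84.6-fold higher in MHCII-high than in MHCII-low cells, against a limit of 3 reads over the MHCII-low group. Cd209a passed the filter on low values only through replicates 1 and 2 of these 4-week MHCII-high cells, and without either of them it was not tested. Its p-values in comparisons with that group are therefore not independent of the filter and are given as a description, beside those with no filter. The log2 difference at 4 weeks was 5.66 ± 1.20 (adjusted p = 0.011, and 0.0081 with no filter), and at 2 weeks it was 0.44 ± 1.20 (adjusted p = 0.91). Averaged over both times it was 3.05 ± 0.85 (adjusted p = 0.031, and 0.021 with no filter), and with a filter of 50 normalized counts the 4-week call was lost (adjusted p = 0.15). Within MHCII-high cells the 4-week level of Cd209a differed from the 2-week level by 5.22 ± 1.20 (adjusted p = 0.036, and 0.032 with no filter). The change of the high-minus-low difference between the times was also 5.22 (± 1.70), with an unadjusted p of 0.0058 that did not pass over all genes (adjusted p = 0.65). The difference between the times lost its call without 9 of the other 12 libraries, in turn (adjusted p up to 0.11), and with edgeR on the recovered reads (adjusted p = 0.13). Its paralogues could share reads with it, and of these Cd209c also rose in MHCII-high cells, to means of 54.1 at 2 weeks and 291 at 4 weeks (log2 5.58 ± 0.92 over both times, adjusted p = 0.00039). Cd209c was at 0 in all 2-week MHCII-low libraries, so its values are given as a description too.

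Fscn1 and Ccr7 mark mature and migrating dendritic cells, and both were close to absent from MHCII-low cells and abundant in MHCII-high cells. Fscn1 encodes fascin, which bundles actin in the processes of mature dendritic cells (chr5:142960343-142973185). It was at 4.7 and 0 normalized counts in controls, at 4.5, 20.7 and 2.2 in 2-week MHCII-low cells and at 22.3, 15.7 and 0 in 4-week MHCII-low cells. Fscn1 in MHCII-high cells was at 842, 238 and 278 at 2 weeks, from 290 to 1637 reads, and at 235, 690.3 and 289.7 at 4 weeks, from 113 to 440 reads. No library of one MHCII level reached the other. The mean ratio was 49.6-fold at 2 weeks and 32.0-fold at 4 weeks, and the log2 difference 5.72 ± 1.12 (adjusted p = 0.0053) and 5.63 ± 1.12 (adjusted p = 0.0056).

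Ccr7 encodes the receptor for CCL19 and CCL21, which guide dendritic cells and naive T cells to lymph nodes (chr11:99144196-99155077). It was at 9.7 and 0.9 normalized counts in controls, at 31.3, 4.8 and 5.0 in 2-week MHCII-low cells and at 19.7, 6.9 and 0 in 4-week MHCII-low cells. Ccr7 in MHCII-high cells was at 410.1, 179 and 266 at 2 weeks and at 204, 337 and 197 at 4 weeks. Again the MHCII levels did not overlap, and the lowest MHCII-high library was at 179 against 31.3 in the highest MHCII-low one. The mean ratio was 20.8-fold at 2 weeks and 27.8-fold at 4 weeks, and the log2 difference 4.70 ± 1.05 (adjusted p = 0.015) and 5.45 ± 1.05 (adjusted p = 0.0044).

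Fscn1 and Ccr7 kept a similar proportion in MHCII-high cells, with 1.05 to 2.05 normalized counts of Fscn1 for each of Ccr7 across the 6 libraries. The 2-week calls were less firm than those at 4 weeks. With the share of mitochondrial ribosomal RNA as a covariate neither passed at 2 weeks (Fscn1 4.74, adjusted p = 0.093, and Ccr7 4.90, adjusted p = 0.073). At that time the share ranged from 22.51% to 26.25% in the MHCII-high and from 3.42% to 18.32% in the MHCII-low level, without overlap, so it cannot be told apart from the MHCII level there. Fscn1 also lost its 2-week call without replicate 1 of the 2-week MHCII-high cells (adjusted p = 0.051), and Ccr7 without replicates 1 or 2 of those cells or replicates 2 or 3 of the 2-week MHCII-low cells (adjusted p up to 0.087). With no filter on low values the 2-week call of Ccr7 was lost too (adjusted p = 0.057). At 4 weeks, where the shares overlap, both calls held without any 1 of the 14 libraries.

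**Figure D2:**
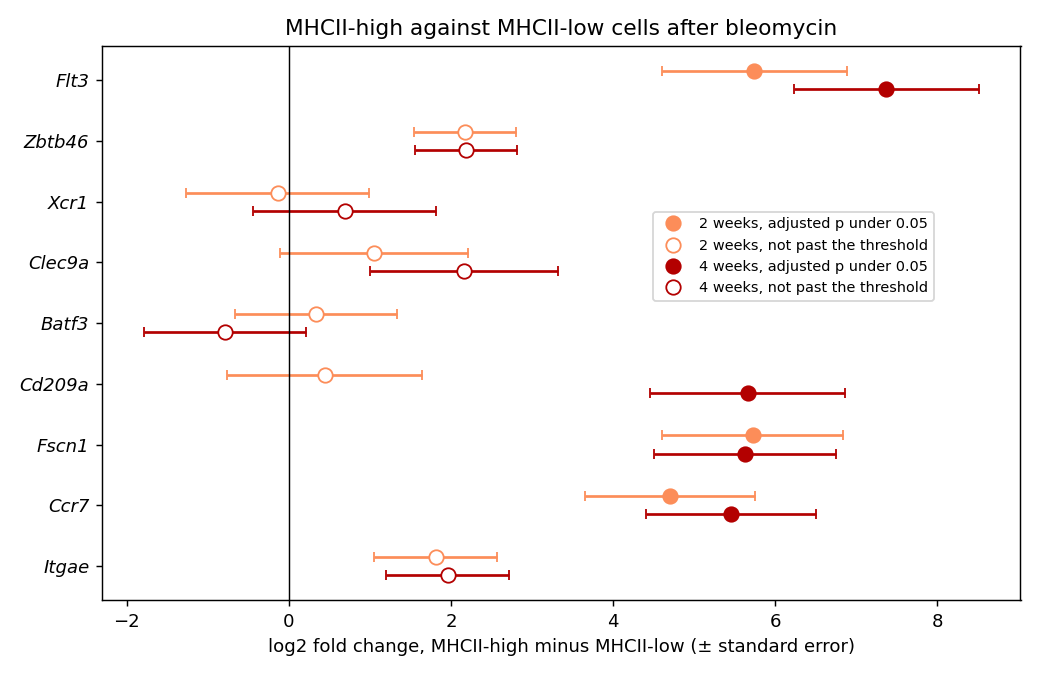
Log2 fold change of each of the 9 genes between MHCII-high and MHCII-low cells, 2 weeks and 4 weeks after bleomycin, on the log2(value + 1) scale, with bars of ± 1 standard error. Filled points passed an adjusted p of 0.05. Flt3, Fscn1 and Ccr7 passed at both times and Cd209a at 4 weeks, while Xcr1 and Batf3 lie within 1 standard error of 0. Flt3 and Cd209a reached the filter on low values only through MHCII-high libraries.

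Counted together, 3 of the 9 genes passed at 2 weeks (Flt3, Fscn1 and Ccr7), 4 of 9 at 4 weeks (these and Cd209a) and 6 of 9 averaged over both times (these, Zbtb46 and Itgae), all higher in MHCII-high cells. Among all 17390 genes tested 2.87%, 2.50% and 7.21% passed in these comparisons, and 2.29%, 1.96% and 5.0% passed as higher. Flt3 and Cd209a reached the filter only through MHCII-high libraries, so their calls add no support to these counts. Of the other 7 members 2, 2 and 4 passed, where 2.80%, 2.48% and 7.22% of the 15836 genes that reached the filter in MHCII-low and control libraries did. Of the genes that passed over both times 69.4% were higher in MHCII-high cells, and with trimmed-mean (TMM) scaling 54.7%. For the 2-week calls of edgeR, which uses that scaling, the share was 68.8% against 79.8%. At 4 weeks it was 78.7% with edgeR and 72.0% with TMM scaling before limma, against 78.6%. The 9 differences had a median of 1.81 at 2 weeks, 2.18 at 4 weeks and 2.17 over both times, beside 0.08, -0.03 and 0.02 over all genes. Without replicate 3 of the 4-week MHCII-high cells 4, 5 and 5 of the 9 passed, with Zbtb46 added at both single times and Itgae lost over both. With TMM scaling before limma all 9 genes kept their direction in these comparisons, and with edgeR all but Xcr1 at 2 weeks (0.21). Flt3, Zbtb46, Clec9a, Fscn1 and Ccr7 were higher without overlap at 2 weeks, 5 of 9 where 12.9% of all genes were. At 4 weeks 6 of 9 were, Itgae and Cd209a in place of Clec9a, against 8.26%. Flt3, Zbtb46, Fscn1 and Ccr7 had no overlap with all 12 bleomycin libraries split by MHCII level, 4 of 9 against 2.31%. Flt3, and Cd209a at 4 weeks, add no support to these overlap counts either, since they reached the filter only through MHCII-high libraries.

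The summed level of the 9 genes was 102 to 321 normalized counts in MHCII-low and control libraries and 979 to 2181 in MHCII-high libraries. Per kilobase of exon, the order of the mean levels differed between groups. In 2-week MHCII-high cells Fscn1 (150.3 normalized counts per kilobase) and Ccr7 (144.0) were the highest, followed by Itgae (38.3), Clec9a (27.2), Zbtb46 (26.1), Flt3 (20.2), Batf3 (11.8), Xcr1 (6.63) and Cd209a (0.337). In 4-week MHCII-high cells Fscn1 (134.5) and Ccr7 (124.5) again led, followed by Clec9a (65.1), Cd209a (54.8), Flt3 (29.9), Zbtb46 (26.1), Itgae (22.7), Xcr1 (18.7) and Batf3 (5.07). In controls Clec9a (19.8), Zbtb46 (16.3), Itgae (11.7), Batf3 (10.3) and Xcr1 (7.97) led, and Ccr7, Cd209a, Fscn1 and Flt3 were at 2.68 or below.

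Against the water-treated controls, no member passed in MHCII-low cells at 2 weeks or at 4 weeks with limma, where 1.91% and 0.0460% of all genes did. Neither edgeR nor DESeq2 called one there. At an unadjusted p of 0.05 none passed at 2 weeks and 1 at 4 weeks, Zbtb46. Zbtb46 was lower in all 6 MHCII-low libraries after bleomycin than in both controls, with means of 52.5 ± 26.6 and 47.7 ± 27.5 (SD, n = 3) against 139 ± 53.5 (n = 2). The log2 difference was -1.46 ± 0.71 at 2 weeks (adjusted p = 0.40) and -1.66 ± 0.71 at 4 weeks (adjusted p = 0.76). Lower values without overlap were found in 21.6% and 16.0% of all genes in these comparisons, so this pattern in Zbtb46 is a common one with 2 controls. Clec9a at 2 weeks and Itgae at 4 weeks were below both controls too, at 0.629 and 0.495 times their means.

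Between 2 and 4 weeks, Cd209a, which reached the filter only through the 4-week cells, was the 1 member that passed in MHCII-high cells with limma (1.07% of all genes did), and none passed in MHCII-low cells (0.857%). In MHCII-low cells no member had an unadjusted p under 0.05, and edgeR and DESeq2 called none. Flt3, Fscn1 and Ccr7 overlapped between the times in MHCII-high cells, at 1.48, 0.895 and 0.864 times the 2-week mean. The high-minus-low difference changed between the times for no gene with limma (0% of all genes, 987 at an unadjusted p under 0.05), for none with edgeR and for 62 with DESeq2, none of them a member.

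Other genes of the dendritic cell programme were grouped into lists, whose counts over both times stand beside the 7.21% of all genes that passed, 5.0% as higher. Some list genes reached the filter only through MHCII-high libraries, 1 of 13 for cDC1, 6 of 13 for cDC2, 6 of 22 for mature and 3 of 9 for plasmacytoid genes. Of the rest 1 of 12, 3 of 7, 6 of 16 and 2 of 6 passed. Calls of genes that reached the filter only through MHCII-high libraries are given below as a description. Of 13 further cDC1 genes tested 1, Cadm1, rose in MHCII-high cells over both times with limma, and the list's median difference was 0.35. In this list edgeR and DESeq2 called 3 genes each, 2 higher and 1 lower, and 7 had an unadjusted limma p under 0.05. Cadm1, an adhesion molecule of cDC1, was at 1455 ± 328 and 1045 ± 952 normalized counts in MHCII-high cells and at 97.5 ± 34.1 and 58.6 ± 36.2 in MHCII-low cells (SD, n = 3), at 2 and 4 weeks (log2 3.92 ± 0.42, adjusted p = 2.2e-06). Irf8, the transcription factor that cDC1 need, was at 1452 ± 50.4 and 1168 ± 134 against 1584 ± 396 and 1332 ± 339 (adjusted p = 0.69), and macrophages express it too. Tlr3 (0.33 ± 0.17, adjusted p = 0.28) and Wdfy4, needed for cross-presentation (0.09 ± 0.15, adjusted p = 0.81), did not pass either. The gene of this list with the highest mean level was Ppt1, a lysosomal enzyme, at a log2 difference of -0.33 ± 0.12 (adjusted p = 0.12).

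Of 13 further cDC2 genes 5 rose over both times and none fell, with a median of 2.15. Of the 7 that reached the filter without MHCII-high libraries 3 passed. The calls of Clec10a and Cd209c are given as a description. Irf4, the factor cDC2 depend on, was at 1742 ± 601 and 1401 ± 118 in MHCII-high cells against 295 ± 56.4 and 215 ± 67.2 in MHCII-low cells (log2 2.63 ± 0.21, adjusted p = 2.6e-08). Mgl2 and Clec10a, which encode the lectins CD301b and CD301a, rose by 5.98 ± 0.77 (adjusted p = 2.3e-05) and 3.89 ± 0.89 (adjusted p = 0.0087). Tnip3, an inhibitor of NF-kB signalling, rose by 3.72 ± 0.59 (adjusted p = 0.00028), and Cd209c is given above. Klf4, the most abundant gene of the list and also made by macrophages, did not pass (-0.06 ± 0.15, adjusted p = 0.87).

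Of 22 mature or migratory dendritic cell genes 10 rose over both times and none fell, with a median of 1.42. Of the 16 that reached the filter without MHCII-high libraries 6 passed, so the other calls, such as that of Apol7c, are a description. Ccl22, a ligand of CCR4, was at 3726 ± 758 and 1925 ± 239 in MHCII-high cells against 328 ± 81.5 and 114 ± 112 in MHCII-low cells (log2 4.13 ± 0.41, adjusted p = 6.2e-07). Ccl17, which binds the same receptor, rose by 4.84 ± 0.72 (adjusted p = 0.00014), the costimulator Cd86 by 1.60 ± 0.25 (adjusted p = 0.00019) and the transporter gene Slco5a1 by 5.74 ± 0.91 (adjusted p = 0.00025). Slco5a1 was at 0 in all 4-week MHCII-low libraries, so its values are given as a description too. Traf1, Cacnb3, Apol7c, Cd40, Marcksl1 and Il4i1 also rose, by 1.87 to 5.35. Relb (0.31 ± 0.39), Socs2 (0.18 ± 0.15), Cd80 (0.03 ± 0.27) and Cd83 (0.48 ± 0.19) did not pass, with adjusted p of 0.71, 0.53, 0.97 and 0.13. Birc3, the most abundant gene of the list, did not pass either (0.39 ± 0.13, adjusted p = 0.066). With the mitochondrial ribosomal share as a covariate 2 of the 22 passed at 2 weeks, where 7 did without it, and 9 over both times.

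Among 9 plasmacytoid dendritic cell genes tested Tcf4 (1.16 ± 0.15, adjusted p = 1.8e-05), Spib (4.77 ± 0.87, adjusted p = 0.0012) and Ccr9 (1.74 ± 0.44, adjusted p = 0.018) rose over both times, and without replicate 3 of the 4-week MHCII-high cells 5 did. Siglech, the defining surface lectin of these cells, was at 12.1 ± 15.3 and 25.3 ± 36.1 in MHCII-high cells and at 0 in all MHCII-low libraries after bleomycin (2.90 ± 1.04, adjusted p = 0.097). Spib and Bcl11a are also made by B cells. Of the 6 plasmacytoid genes that reached the filter without MHCII-high libraries 2 passed over both times, so not all calls above count as support. That of Spib is given as a description. Of 10 genes of dendritic cell development Cbfa2t3, a transcriptional corepressor (4.56 ± 0.39, adjusted p = 7.9e-08), Dpp4, the surface peptidase CD26 (3.81 ± 0.49, adjusted p = 2e-05), and the transcription factor gene Bcl11a (4.64 ± 0.94, adjusted p = 0.003) rose. Id2 (0.38 ± 0.23, adjusted p = 0.38), Spi1, which encodes PU.1 (-0.42 ± 0.13, adjusted p = 0.056), and Csf2rb, the most abundant of the list (-0.13 ± 0.11, adjusted p = 0.53), did not pass.

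Of 6 ligand and partner genes of the 9 proteins tested 1 passed over both times, Jun, and 3 had an unadjusted p under 0.05, with a median difference of 0.28. Itgb7, given above with Itgae, is one of the 6. Ccl19 and Ccl21a, the ligands of CCR7, were at 0 in all 14 libraries, and Xcl1, the ligand of XCR1, had reads in 1 library, so these 3 were not tested. Flt3l, the ligand of FLT3, was at 50.5 ± 32.8 and 37.3 ± 9.46 in MHCII-high cells against 35.7 ± 20.9 and 68.5 ± 34.6 in MHCII-low cells (-0.14 ± 0.58, adjusted p = 0.93). Cdh1, which encodes E-cadherin, the ligand of CD103, was at 5850.0 ± 767 and 4255 ± 938 against 5533 ± 681 and 3824 ± 441 (0.11 ± 0.13, adjusted p = 0.69). Of the Jun genes, whose proteins pair with BATF3, Jun rose by 0.52 ± 0.14 (adjusted p = 0.028), while Junb (0.44 ± 0.21, adjusted p = 0.22) and Jund (0.12 ± 0.15, adjusted p = 0.72) did not pass.

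**Figure D3:**
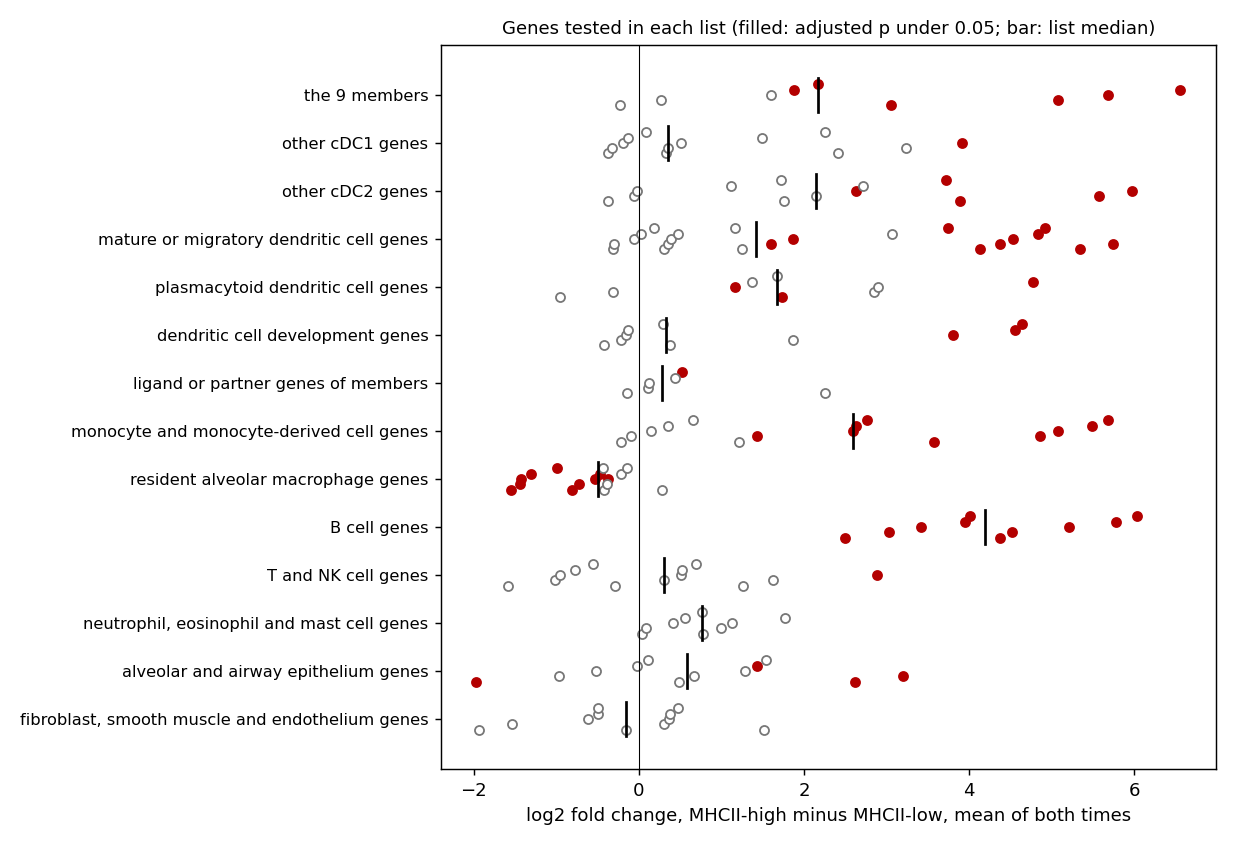
Log2 fold change between MHCII-high and MHCII-low cells, averaged over both times, for each tested gene of the 9 members and the 13 lists, on the log2(value + 1) scale. Each point is a gene, filled where its adjusted p was under 0.05, and each vertical bar is the median of its list. Of the mature or migratory dendritic cell genes 10 of 22 are filled and of the further cDC1 genes 1 of 13, and all 10 B cell genes are filled. Filled points include genes that reached the filter on low values only through MHCII-high libraries.

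Some lists of genes tied to other cell types rose with the members, and others did not. All 10 B cell genes rose over both times with limma, with a median of 4.19, among them Ighd (6.03 ± 0.54, adjusted p = 1.5e-07) and Blnk (3.95 ± 0.50, adjusted p = 1.8e-05). With edgeR and with DESeq2 9 of the 10 were called. Cd79b (5.78 ± 0.78, adjusted p = 4.1e-05) and Pax5 (5.21 ± 0.73, adjusted p = 6.8e-05) reached the filter only through MHCII-high libraries. The values of these 2 genes are given as a description, and the other 8 genes all passed. The summed level of the 10 genes, in which Blnk alone was at 562 to 1683, was 2306 to 5584 normalized counts in MHCII-high libraries. It was 131 to 382 in MHCII-low and control libraries, except replicate 1 of the 4-week MHCII-low cells. That library was at 2243, of which Ighm made up 2127 while Cd79b, Pax5 and Ighd were at 0, and its Flt3, Fscn1 and Ccr7 were at 1.7, 22.3 and 19.7. B cells carry high MHCII and express CCR7, and the part of such cells in the levels of Ccr7 and the other members was not tested.

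Of 15 monocyte and monocyte-derived cell genes 9 rose, with a median of 2.60, such as Ccr2 (2.63 ± 0.13, adjusted p = 2.6e-11), Cx3cr1 (4.86 ± 0.33, adjusted p = 2.4e-09) and C1qc (5.49 ± 0.38, adjusted p = 4.4e-09). Of 16 resident alveolar macrophage genes 10 fell and none rose, with a median of -0.50, such as Krt19 (-1.43 ± 0.14, adjusted p = 5.9e-07), Marco (-1.55 ± 0.15, adjusted p = 5.9e-07), Krt79 (-1.31 ± 0.14, adjusted p = 1.9e-06) and Siglecf (-0.99 ± 0.11, adjusted p = 2.7e-06). Chil3, the most abundant of them, was among the 10. Of 13 T and NK cell genes, which could bring CCR7 and CD103, Cd4 rose (2.89 ± 0.53, adjusted p = 0.0013), a gene that macrophages and dendritic cells can express as well. Their summed level overlapped between the MHCII levels, at 253 to 1042 in MHCII-high and 143 to 705 in MHCII-low and control libraries. Of 12 epithelial genes Sftpc, Lamp3 and Sftpa1 rose and Scgb1a1 fell (-1.97 ± 0.52, adjusted p = 0.021), and LAMP3 is carried by alveolar type 2 cells and by mature dendritic cells. None of 9 neutrophil, eosinophil and mast cell genes and none of 11 fibroblast, smooth muscle and endothelium genes passed with limma. At an unadjusted p under 0.05 these were 1 and 3 genes, edgeR called none and DESeq2 called 0 and 1.

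**Figure D4:**
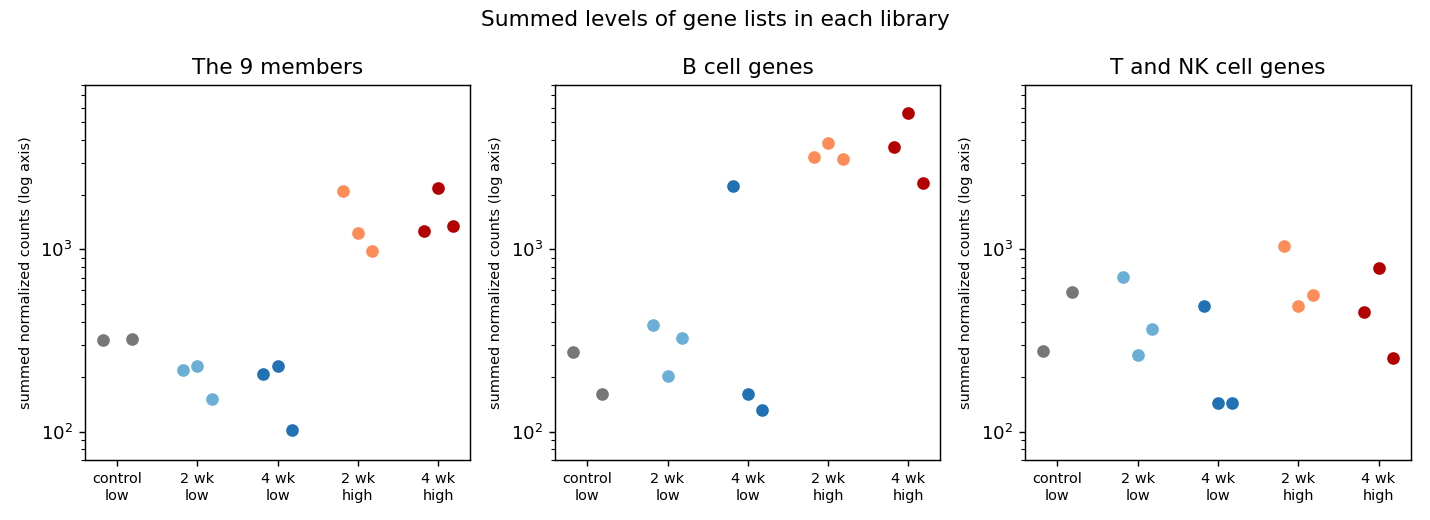
Summed normalized counts (log axis) of the 9 members, of 10 B cell genes and of the T and NK cell genes in each library, with the 5 groups along the horizontal axis. The members lie between 979 and 2181 in MHCII-high libraries and between 102 and 321 elsewhere. The B cell genes follow the same division except for replicate 1 of the 4-week MHCII-low cells, at 2243, and the T and NK cell genes overlap between the groups.

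Across the 14 libraries, the levels of Ccr7 and Fscn1 followed each other most closely among the members (Pearson r of log2(value + 1) 0.95), then Ccr7 and Flt3 (0.93) and Flt3 and Fscn1 (0.87). Xcr1, Clec9a and Batf3 did not move together: r was -0.25 between Clec9a and Xcr1, -0.56 between Batf3 and Xcr1 and -0.03 between Batf3 and Clec9a. With Itgae r was 0.43 for Clec9a, 0.08 for Batf3 and -0.08 for Xcr1. Low counts limit these values, since 4-week MHCII-high libraries held as few as 3 reads of Batf3 and 2 of Clec9a. These values are descriptions over libraries that share their groups and depths. Of all other tested genes the 3 most like Flt3 were Mgl2, Timd4 and Plbd1 (r of 0.95 each). The 3 most like Ccr7 were Plbd1 (0.97), Dpp4 (0.97) and Mgl2 (0.96), and among those most like Fscn1 were Dpp4 (0.95) and Lifr (0.93). Zbtb46 was most like Padi2 (0.92), Fndc4 and 2610203C22Rik (0.90 each), and Itgae most like Gm37159 and St3gal6 (0.93 each) and Alpk1 (0.91). For Cd209a these were Fam131b (0.93), Rhoh (0.89) and Zfp799 (0.88). For Xcr1 they were Gm4349 (0.90), Rps15a-ps5 (0.84) and Zfp964 (0.82), for Clec9a Fmc1 (0.88), Ppp1r2 (0.85) and 9630010A21Rik (0.84), and for Batf3 Mat1a (0.86), Rph3al (0.84) and Ccer2 (0.83). Plbd1 was at 2729 and 2981 normalized counts in 2-week and 4-week MHCII-high cells, against 215 and 144 in MHCII-low cells.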

How the data were processed

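RNA-seq was made from sorted SiglecF-positive, CD11c-positive lung cells by bead isolation of mRNA, whole-transcriptome amplification and transposase tagging, per the labels' protocols, with no molecular identifiers described. The submitters' processing notes name STAR, DESeq2 and the build mm10, without versions. Whether counting used strand is not given in the sources used here. Per the file headers the authors deposited a signal, the normalized count of each gene. In each library they are whole multiples of the worth of 1 read (0.39 to 2.24), which gave whole reads for 99.8% to 100.0% of values within the rounding. Since the values are not counts, limma (3.58.1, R 4.3.3, with a mean-variance trend) was fitted on log2(value + 1) with 1 coefficient for each of 5 groups, over the 17390 genes that reached 10 normalized counts in 2 or more libraries. All 9 members passed this filter. P-values were adjusted by Benjamini-Hochberg within each of 8 comparisons. Adjusted p-values in the text are limma's unless another tool is named. The fit was also run on simulated counts of genes with a mean of at least 10 normalized counts and the same spread for all genes. That run does not cover genes with almost no reads in a group, such as Flt3 and Cd209a. edgeR (4.0.16) and DESeq2 (1.42.0) were run on the recovered reads. No library was left out of the main values.

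The members and the 13 lists (168 genes, all in the table) were chosen with earlier results of these data known, so counts over them are descriptions. Named were all members, all ligand or partner genes, up to 4 genes of each other list with the smallest p over both times among those passing, the most abundant gene of a list, and the 3 genes most correlated with each member. Some genes that meet this rule are not reported here. Further list genes named as not passing were chosen after their values were seen. Gene spans are those of the deposited table, and 90.2% of 42548 genes shared with GENCODE M21 on GRCm38 had the identical span. Alternatives were other pseudocounts (0.5 and 5), no filter or one of 50 normalized counts, TMM scaling, the mitochondrial ribosomal share as a covariate, replicate blocks, edgeR, DESeq2 and leaving out each library. Counting error alone limits values under about 10 reads, and limits based on a count of 0 cover counting error only.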

Additional observations from a re-analysis of the deposited data

How the results depend on the processing

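Flt3, Fscn1 and Ccr7 at 4 weeks and over both times kept direction and call under every alternative run, including each left-out library. Flt3 reached the filter only through MHCII-high libraries, so its kept calls are given as a description. The number of genes called between MHCII-high and MHCII-low cells was 499 at 2 weeks, and 316 without the filter, 207 with the mitochondrial covariate and 1055 with DESeq2. At 4 weeks it was 434, and 282 without the filter and 911 with DESeq2, and over both times it was 1254, and 500 with the covariate and 2122 with DESeq2. Against control it was 332 at 2 weeks (213 with the covariate, 661 with DESeq2) and 8 at 4 weeks (65 without the filter, 2 with the covariate, 16 with the replicate block, 2 with edgeR, 74 with DESeq2). Between the times it was 186 in MHCII-high cells (103 without the filter, 112 with edgeR, 638 with DESeq2), 149 in MHCII-low cells (320 with DESeq2) and 0 for the interaction (62 with DESeq2). The cause of these differences was not tested, except that fewer or more genes were tested under another filter. Members called at 2 weeks fell from 3 to 1 with the covariate, and the call of Cd209a from 2 to 4 weeks was lost (0 members) with a pseudocount of 0.5, a filter of 50, the covariate and edgeR.

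Leaving out each library in turn gave 203 to 624, 266 to 480 and 853 to 1399 genes between the MHCII levels (2 weeks, 4 weeks, both). It gave 127 to 406 and 1 to 17 against control, 64 to 299 and 95 to 183 between the times in MHCII-high and MHCII-low cells, and 0 to 2 for the interaction. Members called were 1 to 4, 3 to 5 and 4 to 6 between the MHCII levels and 0 to 1 from 2 to 4 weeks in MHCII-high cells. With a library left out, Xcr1 ranged from -0.91 to 0.69 at 2 weeks and from -0.11 to 0.85 over both times, and Batf3 from -0.17 to 0.89 and from -0.48 to 0.05, with either sign.

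Other changes of sign were those of Clec9a at 2 weeks (-1.11 with the covariate) and over both times (-0.22), Xcr1 at 2 weeks (0.21 with edgeR, 0.27 with DESeq2) and over both times (-0.14 with the covariate), and Batf3 over both times (0.50 with the covariate). None of these passed the test. Cd209a over both times lost its call with a filter of 50 (adjusted p = 0.19), with the covariate (0.16) and in 8 of the 12 cases in which a library was left out and it was tested. DESeq2 also called Clec9a over both times (2.02, adjusted p = 0.025) and Itgae at 2 weeks (2.23, adjusted p = 0.028).

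Same-numbered MHCII-high and MHCII-low libraries deviated together with r of 0.11, 0.07 and 0.02 at 2 weeks and 0.01, 0.03 and 0.02 at 4 weeks. Differently numbered libraries had r of -0.12 to 0.08 at 2 weeks and -0.03 to 0.02 at 4 weeks. All these values were small, and the numbers were not taken as pairs in the main fit. With the replicate block 524, 441 and 1316 genes were called between the MHCII levels, and with a block of time and number 487, 429 and 1207. Members called over both times were then 6 and 4, as Cd209a (adjusted p = 0.052) and Itgae (0.053) fell outside the threshold in the second block.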
